A study of Mus musculus with 30 samples.

Results

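*Mpo*, *Elane*, *Prtn3*, *Ctsg*, *Ms4a3*, *Cebpe* and *Gfi1* are genes of immature granulocytes, most of them encoding proteins that are made for the primary granules. They were picked by gene symbol from 2 deposited count tables, 1 for BM and 1 for adipose tissue macrophages (ATMs), and all 7 were present in both, among 13353 genes in BM and 17059 in ATMs. The filter on low counts removed no gene from either table, so no member either. Each table held 15 libraries, 3 for each of 5 groups, from whole BM or from F4/80+ cells sorted from visceral fat.

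WT recipients and leptin-deficient *Ob/Ob* recipients were lethally irradiated with 700 and then 400 cGy. Per the labels, both kinds of recipient then received CD45.2+ BM cells of *Shp2*E76K/+;LysM-Cre+ mice mixed in equal number with CD45.1+ BM cells of Boy/J mice. In the donor cells LysM-Cre, which is active in myeloid cells, turns on a Shp2 phosphatase with raised activity. From 8 weeks after transplantation, *Ob/Ob* recipients were treated for 30 days with vehicle (Vehicle), beinaglutide, which activates the GLP-1 receptor (GLP-1R agonist, 3 mg/kg), an antibody that neutralizes IL-17A (anti–IL-17A, 200 µg per mouse, 3 times a week) or both (Combo). The labels give an age of 12 to 14 weeks and both sexes for the mice. The study's methods give recipients a lower age range at irradiation, so the time to which the labels' age refers is not certain. They name 3 biological replicates per group but tie no library to a mouse and give no donor for single samples, so p-values measure the spread between these libraries. The study's account of its ATM data also names WT donor cells for the comparison group. Its figure legend can be read as giving that group *Ob/Ob* recipients as well. The donor and, by that reading, the recipient of the WT libraries of ATMs are thus not certain. Every ATM comparison with WT carries this doubt. No vehicle injection is named for WT recipients, so recipient genotype and handling cannot be told apart in Vehicle vs WT. The sex of the source cells, read from *Xist* below, cannot be told apart from them there either.

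Granulocytes are built in steps. Promyelocytes fill primary (azurophil) granules with myeloperoxidase and serine proteases, later stages fill the specific and gelatinase granules, and mature neutrophils carry the finished granules while the primary granule genes are shut off. RNA of these genes therefore marks early granulocytes of the marrow, and tissue neutrophils hold the proteins with little of the RNA. *Mpo* encodes myeloperoxidase, which makes hypochlorous acid from hydrogen peroxide and chloride. *Elane*, *Prtn3* and *Ctsg* encode neutrophil elastase, proteinase 3 and cathepsin G, serine proteases that are stored active. *Ms4a3* encodes a membrane protein of granulocyte-monocyte progenitors. *Cebpe* and *Gfi1* are transcription factors, not granule proteins: C/EBPε drives the step to specific granules, and GFI1 is a repressor that favors the granulocyte over the monocyte fate.

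In GENCODE M21 (GRCm38), *Mpo* lies at chr11:87793581-87804413 on the plus strand. *Prtn3* (chr10:79874476-79883174) and *Elane* (chr10:79886247-79888215) are neighbors on the plus strand of chromosome 10. On the minus strands lie *Ctsg* (chr14:56099881-56102574), *Cebpe* (chr14:54710360-54712174), *Ms4a3* (chr19:11629496-11640851) and *Gfi1* (chr5:107716657-107726036). Of the exon length, 15% was shared with *Gm11505* in *Mpo*, 9.18% with *Plppr3* in *Prtn3* and 3.17% with *A430072P03Rik* in *Gfi1*, and reads there were counted for both genes and without regard to strand. The other 4 members shared no exon bases with another gene.

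Promoter windows, which reach from upstream of a gene's start to just past it, were found for 6 of 7 members in the RefSeq table of GRCm38.p6 (not for *Cebpe*). The letters GAGGAA on either strand, to which PU.1 can bind, were in a window of 5 of these 6 members and in 28.3% of all 32851 windows. Among these members, the letters were found before the transcript starts only in the 4 granule enzymes, which is why these 4 are shown. The stretches that hold them there are printed with GAGGAA in capitals, 5′ to 3′ on the gene's strand. They lie before the start of the protein-coding transcripts that begin in the window, at chr11:87793534-87793580 (plus), chr10:79886190-79886246 (plus), chr10:79879535-79879613 (plus, inside the annotated *Prtn3* gene) and chr14:56102748-56102824 (minus), in this order:
Mpo: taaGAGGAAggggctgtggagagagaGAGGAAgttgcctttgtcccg
Elane: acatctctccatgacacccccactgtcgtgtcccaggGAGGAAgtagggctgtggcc
Prtn3: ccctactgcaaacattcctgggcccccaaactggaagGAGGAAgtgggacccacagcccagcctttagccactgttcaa
Ctsg: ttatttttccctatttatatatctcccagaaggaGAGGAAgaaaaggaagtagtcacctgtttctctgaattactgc

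*Mpo* held the letters 2 times and the other 3 stretches 1 time each. The other motifs searched, on both strands and with overlaps between motifs allowed, were AACNG (MYB), in 5 of 6 members and 80.3% of all windows, TTNNGNAA (C/EBP), in 2 and 40.7%, TGNGGT (RUNX), in 2 and 45.8%, and AAATCA (GFI1), in 0 and 14%. Such matches describe letters and are no evidence of binding.

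Gene counts summed to 31086184 to 39925495 per BM library and to 24876074 to 45300263 per ATM library. Replicates were much closer in BM, with a biological coefficient of variation of 3.51%, than in ATMs, with 32.5%, and far smaller changes passed the test in BM. WT replicate 1 of BM stood apart from WT replicates 2 and 3. Their counts differed with a chi-square per degree of freedom of 36.1 and 27.7, against at most 4.32 for other replicate pairs in BM. Levels are given in CPM, counts scaled to one fixed library total after TMM normalization, which was done separately for each tissue. *Xist*, expressed from an inactive X chromosome, averaged 0.0455 CPM in WT, 188 in Vehicle, 0.0622 with the GLP-1R agonist, 2.83 with anti–IL-17A and 104 in Combo in BM. In ATMs its average was 37.7 CPM in Vehicle and 34.0 in Combo and at most 0.49 in the other groups. The sex of the source cells thus differed between groups. Where Vehicle or Combo is compared with WT or a single agent, sex and group cannot be told apart. In BM *Xist* also differed between Vehicle (188 CPM) and Combo (104 CPM), so the mix of sexes may differ in that comparison too. The part of sex in the results below was not tested. Of ATM libraries, those of Vehicle held the least *Adgre1*, which encodes F4/80 (42.3 ± 11.2 CPM, against 208 ± 19.2 in WT, 390 ± 14.1 with the GLP-1R agonist, 875 ± 16.7 with anti–IL-17A and 400 ± 4.92 in Combo; mean ± SD, n = 3).

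In BM, all 7 members were highest in Combo. Every Combo library lay above all 12 other libraries for each of the 7, which was so for 14.9% of the 13353 genes. In edgeR's quasi-likelihood test, all 7 also passed as higher in Combo against each of the other 4 groups (adjusted p below 0.05), as did 13.9% of genes. In Vehicle vs WT and with each single agent vs Vehicle, some members were higher and others lower. In bulk BM, a change in the number of early granulocytes and a change in RNA per cell cannot be told apart.

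*Mpo* was at 2427, 2750 and 2641 CPM in WT, 1684, 1729 and 1740 in Vehicle, 2738, 2718 and 2734 with the GLP-1R agonist, 3877, 3929 and 3847 with anti–IL-17A, and 5496, 5584 and 5611 in Combo. Vehicle was the lowest group and Combo the highest, and only WT and the GLP-1R agonist overlapped. *Mpo* fell by 0.60 on the log2 scale in Vehicle vs WT (SE 0.028, adjusted p = 4.23e-18). Against Vehicle it rose by 0.67 with the GLP-1R agonist (SE 0.028, adjusted p = 3.09e-19), by 1.18 with anti–IL-17A (SE 0.028, adjusted p = 1.93e-25) and by 1.70 in Combo (SE 0.028, adjusted p = 1.82e-29), the last a 3.24-fold change.

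*Elane* shared its lowest and highest groups with *Mpo*. It was at 1130, 1259 and 1261 CPM in WT, 910, 898 and 926 in Vehicle, 1084, 1066 and 1081 with the GLP-1R agonist, 1307, 1349 and 1319 with anti–IL-17A, and 1814, 1842 and 1832 in Combo. The WT libraries lay between those of the GLP-1R agonist and of anti–IL-17A without overlap. Elastase RNA fell by 0.42 in Vehicle vs WT (SE 0.029) and rose against Vehicle by 0.24 with the GLP-1R agonist, 0.54 with anti–IL-17A and 1.00 in Combo (SE 0.029 each, adjusted p at most 1.34e-08 in the 4 comparisons), or 2.01-fold in Combo.

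*Prtn3* differed in that it hardly moved outside Combo. It was at 725, 774 and 780 CPM in WT, 768, 779 and 801 in Vehicle, 757, 750 and 758 with the GLP-1R agonist, 900, 927 and 891 with anti–IL-17A, and 1684, 1702 and 1700 in Combo. WT overlapped both Vehicle and the GLP-1R agonist. The log2 fold change of *Prtn3* was 0.04 in Vehicle vs WT (adjusted p = 0.123), and 0.07 without WT replicate 2 (adjusted p = 0.0266) or 0.06 without WT replicate 3 (adjusted p = 0.04). With the GLP-1R agonist vs Vehicle it was -0.05 (adjusted p = 0.0693), and -0.06 without Vehicle replicate 1 (adjusted p = 0.0421). It was 0.21 with anti–IL-17A (SE 0.025, adjusted p = 1.44e-08) and 1.12 in Combo vs Vehicle (SE 0.026, adjusted p = 6.79e-26), a 2.17-fold rise.

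*Ctsg* moved against *Mpo* and *Elane* in the comparisons of Vehicle with WT and with each single agent. It was at 479, 519 and 517 CPM in WT, 609, 631 and 626 in Vehicle, 471, 440 and 454 with the GLP-1R agonist, 570, 575 and 555 with anti–IL-17A, and 1001, 985 and 1007 in Combo. Vehicle thus stood above the other groups except Combo, with no overlap. Cathepsin G RNA rose by 0.30 in Vehicle vs WT (SE 0.029, adjusted p = 1.06e-10) and fell by 0.45 with the GLP-1R agonist vs Vehicle (SE 0.029, adjusted p = 1.38e-14). In Combo it rose by 0.68 (SE 0.029, adjusted p = 3.77e-19). With anti–IL-17A the change was -0.13 (adjusted p = 0.000128), which turned to 0.04 when libraries were scaled by their totals alone.

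*Ms4a3* had a narrow range outside Combo, from 267 CPM with the GLP-1R agonist to 325 CPM in Vehicle, against 531, 525 and 519 CPM in the Combo libraries. Its log2 fold change against Vehicle was 0.71 in Combo (SE 0.023, adjusted p = 7.59e-22), -0.26 with the GLP-1R agonist (SE 0.023, adjusted p = 3.01e-11) and -0.11 with anti–IL-17A (SE 0.023, adjusted p = 7.99e-05). The rise of 0.15 in Vehicle vs WT (SE 0.023, adjusted p = 1.91e-06) was 0.02 when scaled by library totals (adjusted p = 0.44), and the value with anti–IL-17A turned to 0.06.

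Of the transcription factors, *Cebpe* was lowest with the GLP-1R agonist and *Gfi1* in Vehicle. *Cebpe* was at 278, 273 and 266 CPM in WT, 196, 195 and 200 in Vehicle, 163, 165 and 160 with the GLP-1R agonist, 247, 254 and 247 with anti–IL-17A, and 297, 309 and 308 in Combo, with no overlap between any groups. *Gfi1* was at 48.2, 53.4 and 49.7 CPM in WT, 46.7, 44.0 and 44.6 in Vehicle, 75.4, 77.9 and 75.1 with the GLP-1R agonist, 76.5, 79.7 and 73.5 with anti–IL-17A, and 91.4, 97.2 and 97.3 in Combo. Both single agents overlapped for *Gfi1*. *Cebpe* fell by 0.47 in Vehicle vs WT and by a further 0.27 with the GLP-1R agonist vs Vehicle (SE 0.027 each, adjusted p = 8.92e-16 and 3.61e-10), the latter reduced to 0.04 by scaling with library totals (adjusted p = 0.196). It rose by 0.34 with anti–IL-17A (SE 0.027, adjusted p = 1.89e-12) and by 0.63 in Combo (SE 0.027, adjusted p = 5.97e-19). *Gfi1* rose by 0.75 with the GLP-1R agonist and 0.76 with anti–IL-17A (SE 0.043 each, adjusted p = 8.39e-16 and 6.74e-16) and by 1.08 in Combo (SE 0.043, adjusted p = 8.71e-20), a 2.11-fold change.

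**Figure D1:**
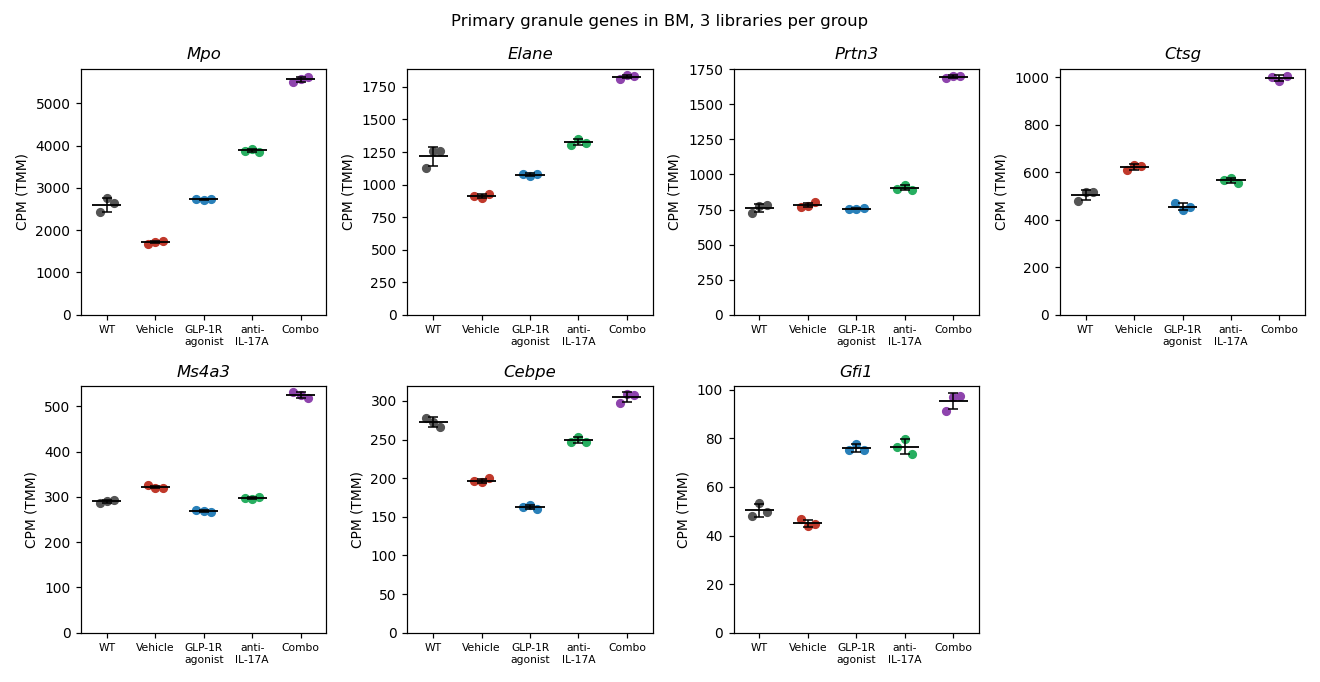
Levels of the 7 genes in BM. Each panel plots CPM after TMM scaling (linear axis from 0) for 3 libraries per group as points, with the mean as a horizontal line and the SD as an error bar. Combo is the highest group in all 7 panels, at 5496 to 5611 CPM for *Mpo* and 91.4 to 97.3 CPM for *Gfi1*, while the order of the other groups differs from gene to gene.

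By the test alone, 6 of 7 members passed in Vehicle vs WT (2 higher, 4 lower), against 76.8% of all genes (37.9% higher, 38.9% lower). With the GLP-1R agonist vs Vehicle 6 of 7 passed (3 higher, 3 lower), as did 73% of genes (36.7% higher, 36.3% lower). With anti–IL-17A 7 of 7 passed (5 higher, 2 lower), as did 73.2% of genes (36.5% higher, 36.7% lower). These shares lie near those of all genes. In Combo vs Vehicle 7 of 7 were higher (38.1% of genes were), and 4 of them, *Mpo*, *Elane*, *Prtn3* and *Gfi1*, also exceeded a log2 fold change of 1, as did 6.58% of genes. That limit was exceeded by 0 of 7 members in Vehicle vs WT (19.5% of genes in either direction), 0 of 7 with the GLP-1R agonist (16.7%) and only *Mpo* with anti–IL-17A (16.1%).

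Combo also stood above WT. All 7 were higher (36.2% of genes), by 0.16 for *Cebpe* to 1.16 for *Prtn3*, and *Mpo* at 1.09 and *Prtn3* were past a log2 fold change of 1 (4.38% of genes higher by as much). The change of *Cebpe* shrank to 0.01 with library totals (adjusted p = 0.669). Against the GLP-1R agonist, Combo was higher by 0.32 (*Gfi1*) to 1.17 (*Prtn3*) for 7 of 7 members (36.1% of genes), with *Gfi1* at 0.07 by library totals (adjusted p = 0.145). Against anti–IL-17A it was higher by 0.29 (*Cebpe*) to 0.90 (*Prtn3*) for 7 of 7 (31% of genes).

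Single agents were set against WT and each other as well. With the GLP-1R agonist, 6 of 7 members passed vs WT (74.9% of genes), with *Gfi1* 0.60 higher and *Cebpe* 0.74 lower as the largest changes. *Mpo* differed by only 0.07 there (adjusted p = 0.0299), and by 0.02 without WT replicate 1 (adjusted p = 0.339), and its call was also lost without any 1 of the 3 GLP-1R agonist libraries (adjusted p = 0.0515 to 0.0738). With anti–IL-17A, 6 of 7 passed vs WT (66.5% of genes), led by *Gfi1* at 0.60 and *Mpo* at 0.58. The GLP-1R agonist group was below the anti–IL-17A group for 6 of 7 (31.2% of genes lower), from -0.15 for *Ms4a3* to -0.62 for *Cebpe*, and *Gfi1* differed by -0.01 (adjusted p = 0.87).

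Whether Combo equaled the sum of both single agents was tested on the log2 scale, in a contrast that shares the Vehicle libraries with the other comparisons. All 7 members departed from the sum (68.8% of genes). *Ctsg* exceeded it by 1.27 (SE 0.041), *Ms4a3* by 1.08 (SE 0.033), *Prtn3* by 0.96 (SE 0.036) and *Cebpe* by 0.56 (SE 0.038), with adjusted p at most 6.95e-14. *Gfi1* lay below the sum by -0.44 (SE 0.059, adjusted p = 1.26e-07) and *Mpo* by -0.15 (SE 0.039, adjusted p = 0.00119). For *Elane* the departure of 0.22 (SE 0.041, adjusted p = 1.57e-05) turned to -0.20 with library totals, under which the median of all genes moved to -0.42.

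Divided by exon length, elastase had the highest RNA level of the 7 in Vehicle, at 926 CPM per kb, followed by *Ctsg* (602), *Mpo* (502), *Prtn3* (452), *Ms4a3* (171), *Cebpe* (159) and *Gfi1* (14.2). In Combo the order was *Elane* (1859), *Mpo* (1625), *Prtn3* (979), *Ctsg* (966), *Ms4a3* (279), *Cebpe* (246) and *Gfi1* (29.9 CPM per kb). *Mpo* passed *Ctsg*, with 2.74 to 2.78 times its CPM in the Vehicle libraries and 5.49 to 5.67 times in Combo. This ratio was 5.07 to 5.30 in WT, 5.81 to 6.17 with the GLP-1R agonist and 6.80 to 6.93 with anti–IL-17A, with no overlap between groups and Vehicle the furthest from the rest. The 7 genes together took 0.425% to 0.432% of all counts in Vehicle and 1.00% to 1.02% in Combo.

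In ATMs the members were low outside Combo, and the contrast with Combo was far larger. *Mpo*, *Elane*, *Prtn3*, *Ctsg*, *Ms4a3* and *Gfi1* were highest in Combo with no overlap with any of the 12 other libraries, which was so for 4.31% of the 17059 genes. *Cebpe* was the exception, since Combo and Vehicle overlapped. In edgeR's test, 5 of the 7 passed as higher in Combo against each of the other 4 groups, against 2.24% of genes, the others being *Cebpe* (against Vehicle) and *Gfi1* (against the GLP-1R agonist). The 5 include *Ms4a3*, which was almost not counted outside Combo. Its call against Vehicle was lost without some single libraries.

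*Mpo* was counted 59, 72 and 92 times in the WT libraries, 151, 257 and 317 times in Vehicle, 100, 98 and 69 times with the GLP-1R agonist, 285, 271 and 157 times with anti–IL-17A, and 8026, 8254 and 7693 times in Combo. In CPM that is 2.12, 2.28 and 3.02 in WT, 6.08, 11.4 and 14.3 in Vehicle, 3.00, 4.001 and 1.82 with the GLP-1R agonist, 6.02, 6.25 and 3.78 with anti–IL-17A, and 209, 225 and 220 in Combo. Vehicle stood above WT and the GLP-1R agonist without overlap and overlapped with anti–IL-17A. *Mpo* rose by 2.09 in Vehicle vs WT (SE 0.31, adjusted p = 3.15e-05) and by 4.37 in Combo vs Vehicle (SE 0.296, adjusted p = 4.6e-09), a 20.6-fold change. It fell against Vehicle by 1.87 with the GLP-1R agonist (SE 0.305, adjusted p = 8.45e-05) and by 0.98 with anti–IL-17A (SE 0.282, adjusted p = 0.0077), the latter not past the test with library totals (-0.63, adjusted p = 0.0627) or in a fit of these 2 groups alone (-0.97, adjusted p = 0.0655).

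*Elane* was at 1.18, 0.919 and 0.755 CPM in WT, 5.39, 4.82 and 5.10 in Vehicle, 0.990, 0.735 and 0.631 with the GLP-1R agonist, 2.60, 1.22 and 2.60 with anti–IL-17A, and 61.7, 66.0 and 68.7 in Combo. Only WT overlapped with the GLP-1R agonist. It rose by 2.42 in Vehicle vs WT (SE 0.28, adjusted p = 2.13e-06) and by 3.68 in Combo vs Vehicle (SE 0.263, adjusted p = 9e-09), or 12.8-fold. The log2 fold change of *Elane* against Vehicle was -2.696 with the GLP-1R agonist (SE 0.285, adjusted p = 8.09e-07), and -1.25 with anti–IL-17A (SE 0.255, adjusted p = 0.000592).

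Proteinase 3 and cathepsin G RNA rose by similar amounts in Combo. *Prtn3* was at 0.718, 1.68 and 1.08 CPM in WT, 2.74, 4.07 and 3.16 in Vehicle, 1.41, 1.72 and 2.84 with the GLP-1R agonist, 1.44, 1.22 and 1.59 with anti–IL-17A, and 45.4, 42.6 and 36.1 in Combo. *Ctsg* was at 0.646, 0.222 and 0.394 CPM in WT, 1.85, 0.796 and 2.39 in Vehicle, 2.40, 2.65 and 2.03 with the GLP-1R agonist, 2.81, 1.34 and 3.08 with anti–IL-17A, and 22, 22.5 and 18.6 in Combo. For *Ctsg* the libraries of Vehicle overlapped with those of both single agents. *Prtn3* rose by 1.51 in Vehicle vs WT (SE 0.323, adjusted p = 0.000914) and 3.64 in Combo vs Vehicle (SE 0.323, adjusted p = 1.23e-07). *Ctsg* rose by 2.00 (SE 0.472, adjusted p = 0.00197; 0.052 with only these 2 groups in the fit) and 3.64 (SE 0.457, adjusted p = 6.46e-06). With anti–IL-17A vs Vehicle the change of *Prtn3* was -1.23 (SE 0.312, adjusted p = 0.00337; 0.0692 with only these 2 groups). The GLP-1R agonist gave -0.73 for *Prtn3* (adjusted p = 0.0588; -1.09 with 0.0122 without GLP-1R agonist replicate 3 and -0.85 with 0.0455 without Vehicle replicate 1) and 0.49 for *Ctsg* (adjusted p = 0.359).

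*Ms4a3* was almost not counted outside Combo and was uneven within Vehicle. Its counts were 1, 6 and 0 in WT, 84, 0 and 21 in Vehicle, 0, 0 and 2 with the GLP-1R agonist, 25, 11 and 5 with anti–IL-17A, and 430, 607 and 460 in Combo. At 2 counts over 3 libraries, the level with the GLP-1R agonist was not measurable at this depth, and fitted changes against it depend on the prior count and are no bound. The rise of 4.17 in Vehicle vs WT (SE 1.26, adjusted p = 0.0106) rested on 1 library, since without Vehicle replicate 1 it was 2.55 (adjusted p = 0.0912). The rise of 3.23 in Combo vs Vehicle (SE 1.06, adjusted p = 0.0201) was 2.99 without Vehicle replicate 3 (adjusted p = 0.0571) and 3.07 without Combo replicate 2 (adjusted p = 0.0591). With anti–IL-17A vs Vehicle it was -2.25 (adjusted p = 0.0848), and -2.82 without Vehicle replicate 2, which had no count (adjusted p = 0.00819).

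*Cebpe* was the only member as high in Vehicle as in Combo. It was at 0.502, 0.634 and 0.919 CPM in WT, 5.96, 2.65 and 4.92 in Vehicle, 0.240, 0.327 and 0.237 with the GLP-1R agonist, 0.507, 0.715 and 1.01 with anti–IL-17A, and 6.01, 4.11 and 5.09 in Combo. Vehicle and Combo overlapped with each other and with no other group. *Cebpe* rose by 2.71 in Vehicle vs WT (SE 0.497, adjusted p = 0.00024) and its log2 fold change against Vehicle was -4.07 with the GLP-1R agonist (SE 0.536, adjusted p = 9.8e-06), -2.60 with anti–IL-17A (SE 0.491, adjusted p = 0.000318) and 0.17 in Combo (SE 0.46, adjusted p = 0.82). *Cebpe* CPM was 42.4% to 122% of *Elane* CPM in WT, 55% to 110% in Vehicle, 24.2% to 44.4% with the GLP-1R agonist, 19.5% to 58.5% with anti–IL-17A and 6.23% to 9.74% in Combo, the lowest group.

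*Gfi1* varied less between groups. It was at 2.33, 3.39 and 5.78 CPM in WT, 4.47, 5.97 and 8.21 in Vehicle, 7.32, 5.43 and 10.1 with the GLP-1R agonist, 7.08, 7.22 and 5.54 with anti–IL-17A, and 12.0, 13.6 and 14.1 in Combo. The 4 other groups overlapped with each other in part, and Combo with none. *Gfi1* rose by 1.09 in Combo vs Vehicle (SE 0.337, adjusted p = 0.0141), or 0.90 without Vehicle replicate 1 (adjusted p = 0.056). In Vehicle vs WT its log2 fold change was 0.69 (adjusted p = 0.0938), and 1.12 without WT replicate 3 (adjusted p = 0.0143) or 0.88 without Vehicle replicate 1 (adjusted p = 0.0498).

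**Figure D2:**
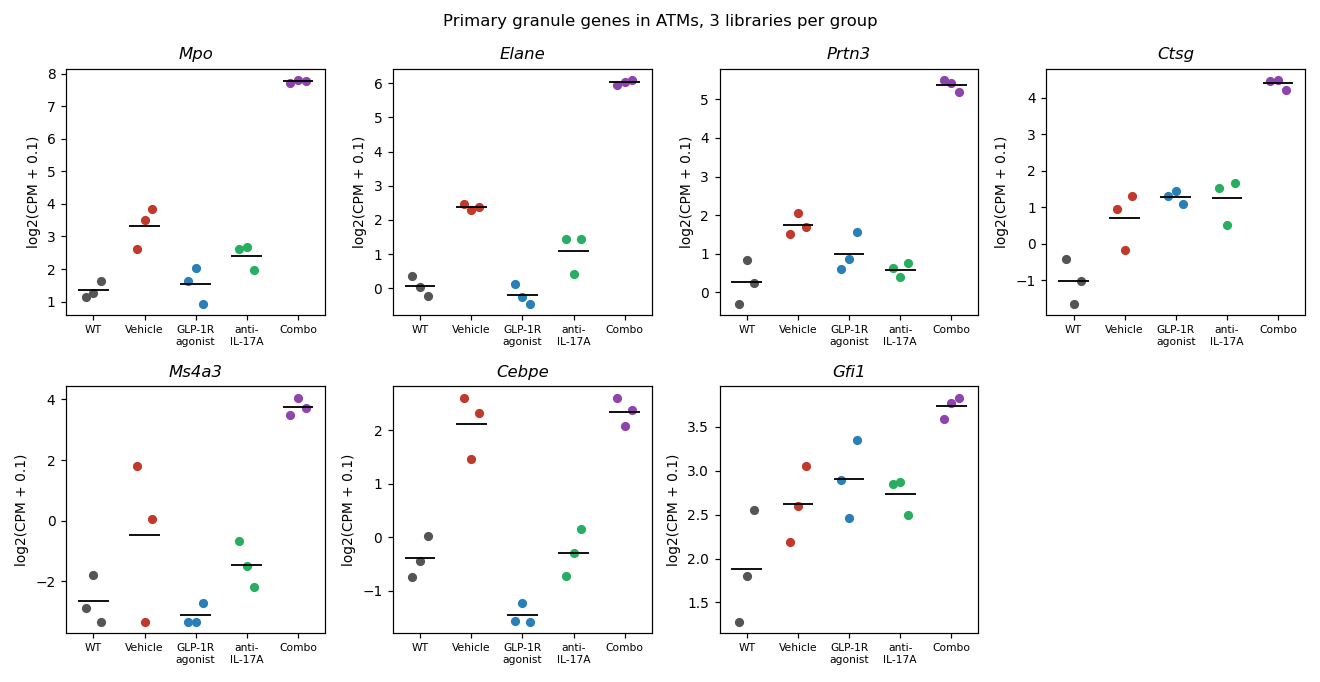
Levels of the 7 genes in ATMs. Each panel plots the log2 of CPM with an added constant for 3 libraries per group as points, with the mean as a horizontal line. Combo lies above all other groups for 6 genes, by several log2 units for *Mpo*, *Elane*, *Prtn3* and *Ctsg*, whereas for *Cebpe* Combo (4.11 to 6.01 CPM) and Vehicle (2.65 to 5.96 CPM) overlap.

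In Vehicle vs WT, 6 of 7 members passed as higher in ATMs (24.4% of genes). Against Vehicle, 4 of 7 were lower with the GLP-1R agonist (22.1% of genes) and 4 of 7 with anti–IL-17A (25.1%). In Combo vs Vehicle 6 of 7 were higher (25%), all by a log2 fold change above 1 (14.2%). All 7 were higher in Combo vs WT (17.9%), from 1.78 for *Gfi1* to 6.46 for *Mpo* besides *Ms4a3*, which had 7 counts in all in WT. The rise was 87.8-fold for *Mpo* and 68.6-fold for *Elane*.

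Combo was higher than each single agent as well. Against the GLP-1R agonist 6 of 7 passed (15.3% of genes higher), with *Mpo* at 6.24 (SE 0.33), *Elane* at 6.38 (SE 0.309), *Prtn3* at 4.37 (SE 0.334), *Ctsg* at 3.16 (SE 0.443) and *Cebpe* at 4.23 (SE 0.539), while *Gfi1* was at 0.80 (adjusted p = 0.0712), and at 1.05 without GLP-1R agonist replicate 3 (adjusted p = 0.0434). Against anti–IL-17A all 7 passed (10.8% of genes), from 1.00 for *Gfi1* to 5.34 for *Mpo* (SE 0.309) and 5.47 for *Ms4a3* (SE 1.19). The call of *Gfi1* there (adjusted p = 0.0345) was lost without any 1 of the 6 libraries (0.89 to 1.07, adjusted p = 0.0547 to 0.113).

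Against WT, 3 of 7 members passed with the GLP-1R agonist (35.8% of genes), of which *Ctsg* was 2.49 higher (SE 0.469, adjusted p = 0.000611). *Cebpe* at -1.35 (adjusted p = 0.0483) and *Gfi1* at 0.99 (adjusted p = 0.0332) rested on single libraries. The call of *Cebpe* was lost without WT replicate 2 or 3 or any GLP-1R agonist library (adjusted p = 0.0669 to 0.156), and that of *Gfi1* without WT replicate 1 or 2 or GLP-1R agonist replicate 1 or 3 (adjusted p = 0.0614 to 0.153). With anti–IL-17A 3 of 7 passed vs WT (38.5%), namely *Mpo* at 1.11, *Elane* at 1.17 and *Ctsg* at 2.52. *Elane* lost its call in a fit of only these 2 groups (1.15, adjusted p = 0.124), and *Gfi1*, at 0.78 (adjusted p = 0.0806), gained one without WT replicate 3 (1.2048, adjusted p = 0.0147). Between the single agents 3 of 7 passed (29.9%), GLP-1R agonist minus anti–IL-17A, with *Elane* at -1.44 (SE 0.283), *Mpo* at -0.90 and *Cebpe* at -1.47. *Elane* stayed past the test without each library in turn but not in a fit of only these 2 groups (adjusted p = 0.0772). *Mpo* lost its call without GLP-1R agonist replicate 1 or 3 or anti–IL-17A replicate 1 or 2 (adjusted p = 0.0787 to 0.172), and *Cebpe* without any GLP-1R agonist library or anti–IL-17A replicate 2 or 3 (adjusted p = 0.0563 to 0.126).

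In ATMs Combo lay above the sum of its 2 agents for 6 of 7 members (20.8% of genes). The excess was 7.22 for *Mpo* (SE 0.425), 7.63 for *Elane* (SE 0.393), 6.83 for *Cebpe* (SE 0.728), 5.59 for *Prtn3* (SE 0.451) and 2.64 for *Ctsg* (SE 0.6, adjusted p = 0.00172). For *Gfi1* it was 0.71 (adjusted p = 0.234), and for *Ms4a3* it rests on the GLP-1R agonist group with 2 counts and is not given. *Cebpe* did not pass in Combo vs Vehicle, so its excess rests on its falls with the single agents and not on a rise in Combo. With the GLP-1R agonist *Cebpe* was counted only 8, 8 and 9 times, so the size of its excess is poorly measured.

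**Figure D3:**
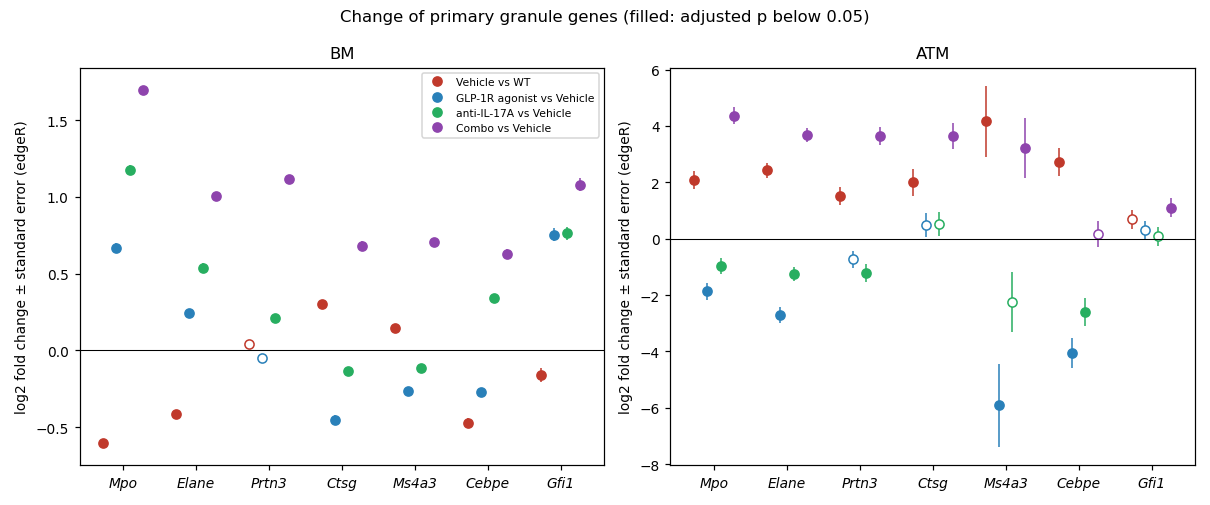
Log2 fold changes of the 7 genes in BM (left) and ATMs (right) for Vehicle vs WT and for each treated group vs Vehicle, with the standard error as a bar and filled points where the adjusted p was below 0.05. The scales differ between the panels: in BM the changes run from -0.60 to 1.70, and in ATMs Combo vs Vehicle reaches 4.37 for *Mpo* while both single agents lie below 0 for *Mpo*, *Elane*, *Prtn3*, *Ms4a3* and *Cebpe*.

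Even in Combo, levels in ATMs were small next to BM. Set across tables normalized separately, *Mpo* in ATMs of Combo was 3.91% of its BM level, *Elane* 3.58%, *Ms4a3* 2.59%, *Prtn3* 2.44%, *Ctsg* 2.11% and *Cebpe* 1.66%. In WT the same shares were 0.0949% for *Mpo* and 0.0783% for *Elane*. *Gfi1* was at 7.61% in WT, 13.8% in Vehicle and 13.9% in Combo. The change in ATMs differed from that in BM, tested as an interaction with limma, for 3 of 7 members in Vehicle vs WT (53% of genes), 3 with the GLP-1R agonist (49.6%), 3 with anti–IL-17A (54.9%) and 5 in Combo vs Vehicle (52.7%). Except in Combo vs Vehicle, these counts did not exceed the share of all genes.

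Late granule and neutrophil genes, which follow in maturation, were set beside the members in the same libraries. In libraries of mixed cells their sum does not by itself give the stage of the granulocytes. The list held *Camp*, *Ltf*, *Ngp*, *Lcn2*, *Mmp8*, *Mmp9*, *Cd177*, *Chil3*, *S100a8* and *S100a9*. Their summed level in BM was 111201 to 118515 CPM in WT, 143254 to 144718 in Vehicle, 87863 to 88539 with the GLP-1R agonist, 103093 to 104590 with anti–IL-17A and 149523 to 151075 in Combo. The sum of the 7 members was 4.53% to 5.32% of it in WT, 3.14% to 3.23% in Vehicle, 6.24% to 6.31% with the GLP-1R agonist, 7.02% to 7.08% with anti–IL-17A and 7.22% to 7.41% in Combo. Vehicle had the lowest share and the 3 treated groups the highest, with no overlap between groups.

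In ATMs the late list separated the groups in another way. It summed to 463 to 479 CPM in WT, 25496 to 27081 in Vehicle, 377 to 396 with the GLP-1R agonist, 563 to 602 with anti–IL-17A and 14523 to 14844 in Combo. The members' sum was 7.54 to 12.0 CPM in WT, 29.7 to 39.0 in Vehicle, 14.9 to 17.7 with the GLP-1R agonist, 17.7 to 20.97 with anti–IL-17A and 367 to 390 in Combo. The members' share of the late sum was 1.57% to 2.58% in WT, 0.11% to 0.146% in Vehicle, 3.95% to 4.46% with the GLP-1R agonist, 3.13% to 3.48% with anti–IL-17A and 2.5% to 2.63% in Combo. Vehicle had the lowest share although its members' sum was second only to that of Combo, and the share in Combo overlapped with WT and lay below both single agents. All 10 late genes rose in Vehicle vs WT (24.4% of all genes rose; median 6.44 on the log2 scale, against -0.21 for all genes), among them *S100a8*, a subunit of calprotectin, by 7.36 and *Camp*, which encodes cathelicidin, by 5.41. In Combo vs Vehicle 3 rose and 4 fell, where 25% of all genes rose and 23.9% fell (median 0.02, against 0.00 for all genes), with *Camp* at 1.07 and *S100a8* at -1.39, while lactoferrin (*Ltf*) was at 0.14 (adjusted p = 0.109).

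**Figure D4:**
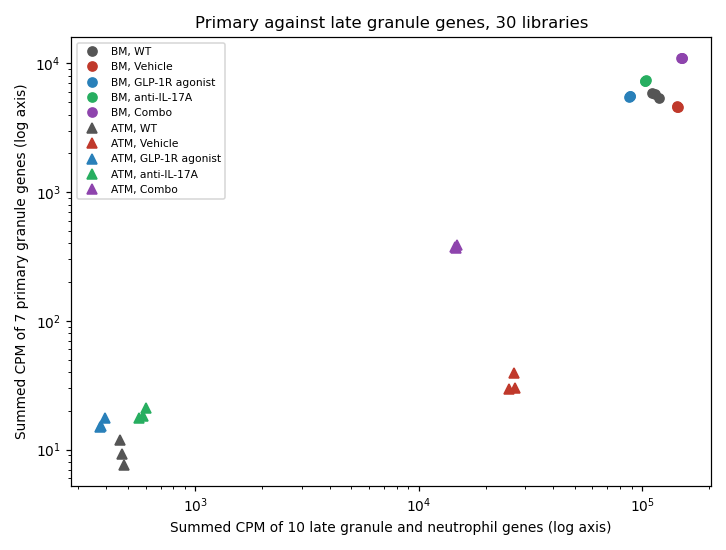
Summed CPM of the 7 primary granule genes against that of the 10 late granule and neutrophil genes, both on log axes, for 30 libraries (circles BM, triangles ATMs, colors for groups). ATMs of Vehicle and Combo both lie far to the right of the other ATM libraries, at 25496 to 27081 and 14523 to 14844 CPM of late genes, but only Combo is also high in primary genes, at 367 to 390 CPM.

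Partners of the stored proteases moved less evenly in BM. Of 10 listed genes 9 were in the BM table, and in Combo vs Vehicle 6 rose and 3 fell, where 38.1% of all genes rose and 35.9% fell (median 0.41, against 0.02 for all genes). *Prss57*, a further serine protease of these granules, rose by 1.52 in BM (SE 0.043) and fell by 0.92 in Vehicle vs WT, but 40.7% of its exon length is shared with *Fstl3*. *Serpinb1a*, an inhibitor of these proteases, rose by 0.41 (SE 0.021). *Ctsc*, the peptidase that activates all 3 proteases, went the other way: it rose by 1.43 in Vehicle vs WT (128 ± 5.91 to 342 ± 3.73 CPM) and fell against Vehicle by 2.56 with the GLP-1R agonist, 1.85 with anti–IL-17A and 1.26 in Combo. *Srgn*, the proteoglycan that holds the proteases in the granule, rose by 0.74 in Vehicle vs WT and fell by 0.36 in Combo vs Vehicle.

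In ATMs 7 of the 10 partners rose and 2 fell in Combo vs Vehicle (25% and 23.9% of all genes; median 0.83). *Prss57* rose by 4.27 (SE 1.37, adjusted p = 0.0172) to 4.02 ± 0.80 CPM, *Ctsc* rose by 0.35 and *Serpinb1a* by 0.28, and *Srgn* fell by 1.27. *Ctsc* and *Srgn* are used by many blood cells besides granulocytes, and *Srgn* stood at 331 ± 9.15 CPM in ATMs of WT.

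Among 10 regulators of the granulocyte and monocyte fates, 7 rose and 3 fell in BM in Combo vs Vehicle (38.1% and 35.9% of all genes; median 0.22, against 0.02). *Myb*, a factor of proliferating progenitors that acts on the primary granule genes, fell by 1.17 in Vehicle vs WT in BM and rose against Vehicle by 0.57 with the GLP-1R agonist, 1.11 with anti–IL-17A and 1.10 in Combo. *Spi1* (PU.1) rose by 0.48 in Vehicle vs WT and by 0.24 in Combo vs Vehicle, and fell by 0.54 and 0.24 with the GLP-1R agonist and anti–IL-17A. *Cebpa*, the factor of granulocyte commitment, moved by only 0.18 in Combo (SE 0.039, adjusted p = 0.000155), and *Runx1* by 0.21 (SE 0.044, adjusted p = 9.46e-05). The largest change in Combo vs Vehicle was that of *Klf4*, a monocyte factor, at 2.72, and the lowest that of *Gata2* at -0.78.

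In ATMs only 1 regulator rose and 5 fell in Combo vs Vehicle (25% and 23.9% of all genes; median -0.21, against 0.00). The one that rose was *Zeb2*, by 0.42. *Myb* was at 4.83 ± 3.16 CPM in Vehicle and 8.62 ± 1.19 in Combo, a log2 fold change of 0.83 (adjusted p = 0.107), and *Cebpa* was at 0.43 (adjusted p = 0.0684). *Spi1* rose by 2.51 in Vehicle vs WT and fell by 0.76 in Combo vs Vehicle.

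Markers of other cells and stages also differed in BM of Combo vs Vehicle, where 38.1% of all genes rose and 35.9% fell. Of 7 mature neutrophil markers 5 rose and 2 fell (median 1.26), and their sum was 4321 to 4389 CPM in Vehicle and 8540 to 8648 in Combo, with 6759 to 7028 in WT, 5098 to 5151 with the GLP-1R agonist and 7320 to 7373 with anti–IL-17A. As with the summed members, Vehicle was the lowest group and Combo the highest. Of 8 stem and progenitor markers 4 rose and 0 fell (median 0.29), with sums of 93.5 to 96.9 CPM in Vehicle and 171 to 174 in Combo. Among them, *Kit*, the receptor of progenitors and mast cells, fell by 0.70 in Vehicle vs WT and rose against Vehicle by 1.44, 1.48 and 1.35 with the GLP-1R agonist, anti–IL-17A and Combo. *Cd34* fell by 0.83 and rose by 0.32, 0.97 and 0.56 in the same comparisons. Of 10 cell cycle genes 8 rose and 1 fell in BM in Combo vs Vehicle (median 0.35), with a summed level of 3087 to 3133 CPM in Vehicle and 3898 to 3920 in Combo. Of 8 monocyte markers 4 rose and 4 fell (4027 to 4179 CPM in Vehicle, 2575 to 2577 in Combo), of 10 macrophage markers 2 rose and 7 fell (721 to 737 and 301 to 304 CPM), and of 9 mast cell and basophil markers 1 rose and 6 fell (1815 to 1882 and 782 to 798 CPM). All 8 B cell and all 6 T cell markers fell (medians -1.60 and -1.02), the B cell sum from 361 to 382 CPM to 122 to 127 and the T cell sum from 68.4 to 68.7 CPM to 32.6 to 37.1. With the GLP-1R agonist the B cell sum was 117 to 118 CPM. The members summed to 5374 to 5920 CPM in WT, 4539 to 4657 in Vehicle and 5485 to 5559 with the GLP-1R agonist. Their sum was 7233 to 7408 CPM with anti–IL-17A and 10915 to 11075 in Combo. The part of these cell types in the members' values was not tested.

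In ATMs of Combo, 9 of 10 cell cycle genes were higher than in Vehicle (25% of all genes rose and 23.9% fell; median 3.30), with a sum of 787 to 825 CPM against 198 to 228, and *Mki67*, a marker of dividing cells, rose by 3.60. All 6 T cell markers rose (median 2.97, from 99.8 to 118 CPM to 856 to 860), and 8 of 10 macrophage markers rose and 2 fell (median 1.35). Mature neutrophil markers, of which 7 of 8 were in the table, did not follow the members: 0 rose and 5 fell (median -1.10, from 2635 to 2727 CPM in Vehicle to 1328 to 1357 in Combo, against 391 to 404 in WT). Of 8 stem and progenitor markers 1 rose and 4 fell, and *Kit* fell by 1.65. Erythroid markers rose in 5 of 8 and fell in 1, and their sums were 6718 to 6809 CPM in Vehicle and 5448 to 5596 in Combo. The part of any of these cells in the members' levels was not tested.

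The genes most like *Mpo*, *Elane*, *Prtn3* and *Ctsg* were taken by Pearson's r with the mean of their 4 standardized log2 levels over the 15 libraries of a tissue, among genes with at least 10 CPM on average. These libraries form 5 groups, so r mainly reflects group means and is a description. In BM, over 8739 genes, the nearest were *Capn1* (r = 0.987), *Ap2m1*, *Itgb2*, *Chp1*, *Rac2*, *Kpna2*, *Cib2*, *Prok2*, *Dock8* and *Mapkapk3* (r = 0.977). *Prok2*, which encodes the secreted peptide Bv8 of marrow myeloid cells, went from 2.69 ± 0.548 CPM in Vehicle to 52.5 ± 2.23 in Combo. *Rac2*, a GTPase of blood cells, went from 992 ± 13.2 to 1821 ± 10.8 CPM, and *Itgb2*, the β chain of leukocyte integrins, from 898 ± 35.0 to 1477 ± 24.5. Among the other members r was 0.902 for *Ms4a3*, 0.759 for *Gfi1* and 0.728 for *Cebpe*.

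In ATMs, over 9691 genes, the nearest were *Hmgb2* (r = 0.971), *Gmfg*, *Arg1*, *Car2*, *Tagap*, *Gimap1*, *Cpa1*, *Slc4a1*, *Reg1* and *Cela3b* (r = 0.949). *Arg1*, arginase of alternatively activated macrophages, was at 51.9 ± 8.24 CPM in Vehicle and 216 ± 14.7 in Combo. *Slc4a1*, the anion exchanger of red cells, was at 37.8 ± 11.02 and 169 ± 11.2 CPM. *Cpa1*, *Reg1* and *Cela3b* are genes of the exocrine pancreas. They were at 63.8 ± 2.13, 56.7 ± 1.56 and 103 ± 0.18 CPM in Combo and at or below 0.134 CPM on average in each other group, so RNA of another organ was present in the Combo libraries of ATMs, and its part in the members' levels was not tested.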

How the data were processed

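RNA was sequenced from BM and from sorted ATMs (polyA, unstranded, paired-end). The authors aligned reads to mm10 (GRCm38) with STAR 2.7.2a, counted them on GENCODE M22 genes with featureCounts 2.0.1, without strand and counting a read once for every gene it overlapped, and deposited raw counts. Genes with few counts were already absent (smallest total over 15 libraries 55 in BM and 54 in ATMs). The study's own tests used DESeq2, with which it also reports a correction of the counts for batch and library preparation. No batch term was in the fits used here.

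Here, groups came from the sample labels. Counts were fitted in R 4.3.3 with edgeR 4.0.16 (TMM scaling, filterByExpr, quasi-likelihood, 15 libraries of a tissue in 1 fit, 2-sided). A gene passed at a Benjamini-Hochberg adjusted p below 0.05 over all genes of the table. SEs came from the F statistic. Differences between tissues were tested with limma 3.58.1 (voom with quality weights, 30 libraries). Coordinates and exon lengths came from GENCODE M21. DESeq2 1.42.0, other scalings and filters, a replicate block and leave-one-out fits were alternatives, and scripts were tested on simulated data. Named were the 7 members, regulators, partners and stage markers, the extremes of each list, and the 10 genes most like the enzymes. The members and lists were chosen with earlier results of these data known. *Xist* and *Mki67* were named outside this rule, after their values were seen. Depth was 24876074 to 45300263 counts per library.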

Additional observations from a re-analysis of the deposited data

Results flagged for a closer look

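The changes of 6 members differed between ATMs and BM, tested as an interaction over the 30 libraries with limma on the 13076 genes of both tables. Of 28 tests (7 members in 4 comparisons) 14 passed, about the share of all genes (49.6% to 54.9% in the 4 comparisons). In Vehicle vs WT (53% of genes passed), the change in ATMs exceeded that in BM by 2.59 for *Mpo* (adjusted p = 0.0329), 2.85 for *Elane* (adjusted p = 0.0345) and 3.13 for *Cebpe* (adjusted p = 0.000157) on the log2 scale. These 3 genes fell in BM and rose in ATMs.

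With the GLP-1R agonist vs Vehicle (49.6% of genes) the difference, ATMs minus BM, was -2.55 for *Mpo* (adjusted p = 0.0249), -2.96 for *Elane* (adjusted p = 0.0372) and -3.70 for *Cebpe* (adjusted p = 0.00042). With anti–IL-17A (54.9%) it was -2.10 for *Mpo* (adjusted p = 0.0104), -1.90 for *Elane* (adjusted p = 0.0436) and -2.96 for *Cebpe* (adjusted p = 5.07e-05). *Mpo* and *Elane* rose in BM and fell in ATMs with both agents.

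In Combo vs Vehicle (52.7% of genes) the rise in ATMs exceeded that in BM by 2.82 for *Mpo* (adjusted p = 1.19e-05), 2.71 for *Elane* (adjusted p = 6.19e-05), 2.58 for *Prtn3* (adjusted p = 3.21e-05), 3.12 for *Ctsg* (adjusted p = 0.000447) and 4.29 for *Ms4a3* (adjusted p = 0.000174). The size for *Ms4a3* depended on the tool, since edgeR on the same libraries gave 2.51 (adjusted p = 6.27e-06), and its ATM counts outside Combo were few. For *Cebpe* it was -0.37 (adjusted p = 0.402) and for *Gfi1* 0.10 (adjusted p = 0.811). All 4 comparisons share the Vehicle libraries.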

How the results depend on the processing

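Of the members' values under the alternatives, 1013 in BM and 934 in ATMs kept their direction and their side of the threshold, 11 and 12 changed sign, 12 and 41 lost the call and 7 and 18 gained it. Sign changes by library totals alone, under which the median of all BM genes lay between -0.42 (departure from the sum) and 0.24 (GLP-1R agonist vs Vehicle), were *Prtn3* in BM (-0.0824 in Vehicle vs WT, 0.18 with the GLP-1R agonist vs Vehicle, 0.10 vs WT), *Ctsg* and *Ms4a3* in BM with anti–IL-17A vs Vehicle (0.0376 and 0.0581), *Gfi1* in BM between the single agents (0.0544), the departure of *Elane* in BM (-0.20) and *Mpo* in ATMs with the GLP-1R agonist vs WT (-0.0081). With a log2 fold limit of 1, members past the test in BM went from 6 to 0 in Vehicle vs WT and with the GLP-1R agonist vs Vehicle, from 7 to 1 with anti–IL-17A, 7 to 4 in Combo vs Vehicle, 6 to 0 with either agent vs WT and between the agents, 7 to 2 in Combo vs WT and for the departure, 7 to 3 in Combo vs the GLP-1R agonist and 7 to 0 vs anti–IL-17A. At least 10 counts in every library left 4 members in ATMs, of which 3 passed in Vehicle vs WT and for the departure, 1 with the GLP-1R agonist vs WT and 4 in Combo vs WT and vs anti–IL-17A. A fit of the compared groups only gave 2 with anti–IL-17A vs Vehicle, 1 with the GLP-1R agonist vs WT and 0 between the agents. edgeR in place of limma raised the tests past the threshold between tissues from 14 to 24. Of the 10 most like genes, 4 in BM and 5 in ATMs were shared with library totals.

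Leaving out 1 library gave 1 to 2 members in ATMs with the GLP-1R agonist vs WT and between the agents. Ranges that crossed 0 were, in BM, *Prtn3* with the GLP-1R agonist vs WT (-0.0407 to 0.0166) and *Gfi1* between the agents (-0.0372 to 0.0219), and in ATMs *Gfi1* with anti–IL-17A vs Vehicle (-0.11 to 0.33), *Cebpe* in Combo vs Vehicle (-0.10 to 0.42), *Ms4a3* and *Mpo* with the GLP-1R agonist vs WT (-4.41 to 0.20 and -0.0513 to 0.49), *Cebpe* with anti–IL-17A vs WT (-0.17 to 0.38), and *Ctsg* and *Gfi1* between the agents (-0.33 to 0.18 and -0.0509 to 0.40). The cause of these changes was not tested.

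Replicate numbers did not pair the libraries: same-numbered libraries of different groups had correlations of -0.131 to 0.292 in BM (3 of 30 above 0.1) and -0.135 to 0.0394 in ATMs (0 of 30). With the replicate number as a block, *Ctsg* in ATMs between the agents changed sign (0.0615), *Cebpe* lost its call with the GLP-1R agonist vs WT (-1.32, adjusted p = 0.0748 by edgeR) and vs anti–IL-17A (-1.44, adjusted p = 0.0605), and *Gfi1* gained one with anti–IL-17A vs WT (0.88, adjusted p = 0.0425). Depth limits *Ms4a3* and *Ctsg* in ATMs, at 0 to 84 and 7 to 133 counts per library outside Combo.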
